A study of Mus musculus with 8 samples.

Results

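The CD90-positive Igfbp3 fibroblasts are the 1667 cells, of 53080 cells in all, that the authors' deposited cell table names as fibroblasts of the subtype "CD90-pos, Igfbp3" in the mouse colon. They are set here against the 4424 cells of the neighbouring subtype "CD90-pos", within the same mice and by genotype. The cells came from the stripped distal colonic mucosa of 8 mice aged 8 weeks. The 4 KO-labelled mice (mice 2, 3, 6 and 7) were Vil1-Cre;Spry2-f/f, in which Cre under the Villin promoter acts in intestinal epithelial cells and not in fibroblasts by design. The 4 WT-labelled mice (mice 1, 4, 5 and 8) were Spry2-f/f littermates without Cre, so every animal carried the floxed allele. Each mouse gave 1 droplet-based 3′ transcript library, and per the labels' protocols all were handled as a single batch.

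Fibroblasts of the colonic mucosa build the connective tissue under the epithelium and feed it with Wnt and BMP signals that set the crypt axis. CD90, encoded by Thy1, is a surface glycoprotein that several fibroblast subsets carry, while PDGFRA is a receptor found on most of them. IGFBP3 is a secreted protein that binds insulin-like growth factors in the extracellular space and limits their access to the IGF1 receptor. Fibroblasts close to the epithelium are known for high Pdgfra with Bmp and Wnt ligands, those of the lamina propria for Adamdec1, and those around vessels and in the submucosa for Cd81, Pi16 and Ackr4. Sprouty2 is an inhibitor of receptor tyrosine kinase signalling.

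The Igfbp3 fibroblasts numbered 81, 104, 354 and 349 in KO-labelled mice 2, 3, 6 and 7, against 15, 110, 490 and 164 in WT-labelled mice 1, 4, 5 and 8. Their summed transcripts came to 407754 to 1642682 unique molecular identifiers (UMIs) per KO-labelled mouse and 65696 to 2321509 UMIs per WT-labelled mouse, so the 15 cells of mouse 1 give the least precise values. The CD90-pos subtype had 492 to 1008 cells per KO-labelled mouse and 21 to 710 per WT-labelled mouse. The low end was mouse 8, whose 21 CD90-pos cells held a median of 724 UMIs and 19945 UMIs in all. Of those 21 cells 20 lay in the authors' cluster 12, which holds most Igfbp3 fibroblasts, and 1 lay in cluster 2, which holds 97.0% of CD90-pos cells. For comparisons of both subtypes, counts over all genes are therefore given with and without mouse 8. Log2 differences of single genes and counts of list members are over all 8 mice unless stated. Some list counts without mouse 8 stand in the last section. Of the 1667 Igfbp3 fibroblasts 21 had a cell barcode that also occurred in another library, and no barcode was shared between Igfbp3 fibroblasts of different mice. In the epithelium, where the deletion was aimed, Spry2 stood at 10.4, 13.3, 15.7 and 49.3 CPM (the UMIs of a gene scaled to a fixed library total) in KO-labelled mice 2, 3, 6 and 7 and at 11.2, 17.6, 27.7 and 37.6 CPM in WT-labelled mice 1, 4, 5 and 8. These ranges overlap and the highest value is that of KO-labelled mouse 7, so the transcript did not separate the labels. A 3′ tag may lie outside the deleted stretch and then checks nothing.

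The 4 marker genes were present in the cells. Igfbp3 (chromosome 11, 7206086 to 7213923, minus strand, mm10) had at least 1 UMI in 72.1% of Igfbp3 fibroblasts, against 2.67% of CD90-pos cells. In B cells, which should lack it, the share was 0.0952% at a median of 1994 UMIs per cell, where the 2 fibroblast subtypes had medians of 4290 and 3886 UMIs. Igfbp3 was not restricted to these fibroblasts: 50.9% of endothelial and 27.8% of lymphatic cells also had a UMI. Thy1 (chromosome 9, 44043384 to 44048579, plus strand) had a UMI in 27.4% of Igfbp3 fibroblasts and 20.1% of CD90-pos cells, against 0.469% of B cells. Most cells of either subtype thus had no Thy1 UMI at this depth. Pdgfra was detected in 63.3% and 63.7%, and Col3a1, a fibrillar collagen, in 99.9% and 99.5% of Igfbp3 and CD90-pos fibroblasts. With each cell thinned to 1000 UMIs (1657 and 3974 cells left), Igfbp3 was detected in 45.7% and 1.26% and Thy1 in 8.87% and 6.54% of Igfbp3 and CD90-pos fibroblasts. Markers of other cell types were summed per library in plain CPM; the epithelial ones are given with the genotype test. The 8 B and plasma cell markers stood at 216 to 508 CPM in KO-labelled and 228 to 824 CPM in WT-labelled mice. The 8 T cell and innate lymphoid markers summed to 4.26 to 14.3 CPM in KO-labelled and 0 to 12.2 CPM in WT-labelled mice and the 5 glial markers to 1.83 to 3.97 CPM in KO-labelled and 0 to 1.72 CPM in WT-labelled mice. The 7 endothelial markers came to 12.2 to 29.4 CPM in KO-labelled and 0 to 30.6 CPM in WT-labelled mice, with Cdh5 at 0 in all mice, and the 5 mesothelial and Cajal cell markers to 0 to 9.53 CPM in KO-labelled and 0 to 9.91 CPM in WT-labelled mice, with Msln and Wt1 at 0. The 8 myeloid markers summed to 28.6 to 35.3 CPM in KO-labelled and 11.4 to 45.7 CPM in WT-labelled mice.

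The first question was whether these fibroblasts took a different share of cells in KO-labelled mice. Among cells of both CD90-positive subtypes, Igfbp3 fibroblasts made up 10.8, 9.35, 41.8 and 33.2% in KO-labelled mice 2, 3, 6 and 7, against 3.82, 13.4, 52.5 and 88.6% in WT-labelled mice 1, 4, 5 and 8. The genotypes overlapped fully, and the WT-labelled mice held both the lowest and the highest share. The 95% Wilson intervals of those 2 were 2.33 to 6.20% in mouse 1 and 83.3 to 92.5% in mouse 8; they cover counting error only. KO-labelled mice averaged 23.8 ± 16.3% and WT-labelled mice 39.6 ± 38.9% (SD, n = 4 each; two-sided exact permutation p = 0.486, 0.679 after adjustment over 5 tests, where the smallest p that 70 assignments allow is 0.0286). Without mouse 8 the difference of KO minus WT changed sign, to 0.574 percentage points. Over all 6957 fibroblasts, the 695 doublets named by the authors included, KO-labelled mice had 20.8 ± 13.9% and WT-labelled mice 32.6 ± 30.9% (exact permutation p = 0.486, n = 4 each), and over all non-epithelial cells the share came to 5.32 ± 3.02% in KO-labelled animals and to 9.47 ± 10.5% in WT-labelled animals (exact permutation p = 0.543, n = 4 each); without mouse 8 these differences became 0.671 and 0.338 percentage points.

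The share differed more between mice 1 to 4 and mice 5 to 8 than between genotypes. In mice 5 to 8 it averaged 54.0 ± 24.4%, against 9.34 ± 4.05% in mice 1 to 4 (SD, n = 4 each), with 2 KO-labelled and 2 WT-labelled animals in each set and no overlap. The share of epithelial cells with at least 50% mitochondrial UMIs also separated those sets, at 11.1 to 37.2% in mice 5 to 8 and 53.5 to 79.6% in mice 1 to 4, and its part in the shares was not tested. The sets also differed in sex-linked transcripts. Ddx3y, from the Y chromosome, was found in mice 2, 3 and 4 and in mouse 5. Xist, from the inactive X chromosome, was found in mouse 1 and in mice 6, 7 and 8. In KO-labelled mice this split was the same as that of the sets, and its part in the shares was not tested. Within mice 1 to 4 the difference of KO minus WT was 1.45 percentage points, and within mice 5 to 8 it was -33.0 percentage points. Depth did not differ beyond the spread of the mice, with medians per cell of 4566 ± 673 UMIs in KO-labelled animals and 4030 ± 981 UMIs in WT-labelled animals (exact permutation p = 0.457, n = 4 each). Mitochondrial transcripts were a median of 3.60 ± 0.262% of UMIs in KO-labelled animals and 3.42 ± 0.840% in WT-labelled animals (exact permutation p = 0.743, n = 4 each), a difference that changes sign, to -0.161 percentage points, without mouse 8.

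**Figure D1:**
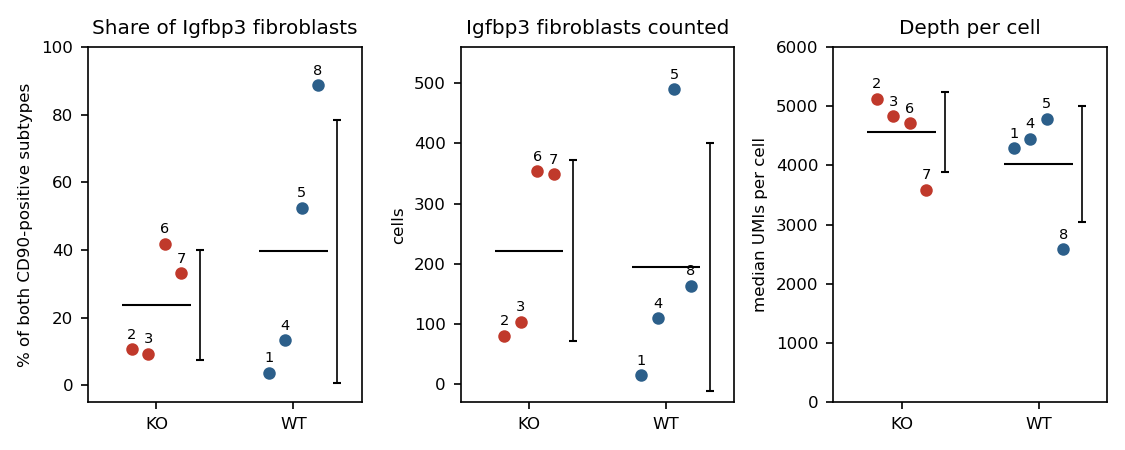
Percent of Igfbp3 fibroblasts among both CD90-positive subtypes (left), number of Igfbp3 fibroblasts (middle) and median UMIs per Igfbp3 fibroblast (right) in 4 KO-labelled and 4 WT-labelled mice; points are mice with their number, bars the mean and the error bar beside them the SD. The shares of the WT-labelled mice run from 3.82 to 88.6% and enclose those of the KO-labelled mice.

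What set Igfbp3 fibroblasts apart from CD90-pos fibroblasts was described gene by gene within each mouse. The authors named the subtypes from these transcripts, so no test was made. A gene was counted as higher or lower where the mean over 8 mice of log2((CPM + 10)/(CPM + 10)), Igfbp3 over CD90-pos, was at least 1 in size with the same sign in at least 7 mice. By this rule 384 of 10161 genes (3.78%) were higher and 203 (2.00%) lower, and the median of all genes was 0.073. Without mouse 8 the counts were 357 higher and 291 lower and the median of all genes was -0.038. With each cell thinned to 1000 UMIs mouse 8 kept 3 CD90-pos cells and dropped out, and over the other 7 mice 255 of 6542 genes were higher and 388 lower. Levels below are means over 8 mice for Igfbp3 fibroblasts and over the 7 mice other than mouse 8 for CD90-pos fibroblasts; log2 differences are means ± SD over all 8 mice.

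The leading gene was Adamdec1, a secreted metalloprotease of lamina propria fibroblasts. It stood at 1903, 1487, 1616 and 1524 CPM in Igfbp3 fibroblasts of KO-labelled mice 2, 3, 6 and 7 and at 974, 1742, 1799 and 2898 CPM in those of WT-labelled mice 1, 4, 5 and 8. In CD90-pos fibroblasts it had 7.18, 4.60, 8.88 and 6.93 CPM in KO-labelled and 0.742, 5.93, 32.9 and 936 CPM in WT-labelled mice. All values of Igfbp3 fibroblasts lay above all those of CD90-pos fibroblasts, where mouse 8 alone stood far above the rest. The log2 difference was 5.84 ± 1.76, and 6.44 without mouse 8. Igfbp3 itself, which named the subtype, stood at 1094, 1217, 1019 and 508 CPM in KO-labelled and 816, 774, 1522 and 1246 CPM in WT-labelled mice, against 6.15, 3.39, 11.4 and 89.5 CPM and 8.16, 7.78, 51.3 and 549 CPM in CD90-pos fibroblasts of KO-labelled and WT-labelled mice. Its lowest value in Igfbp3 fibroblasts was that of mouse 7. The other genes among the 12 with the largest positive difference were Edil3, an integrin-binding matrix protein (359 against 2.74 CPM, log2 difference 4.45 ± 1.51), the transmembrane proteins Tmem176a (4.43) and Tmem176b (4.25), Wnt4 (4.39), Ifitm1 (4.02), Cxcl13 (3.70), the heparan sulphate-cleaving enzyme Hpse (3.65), Bmp5 (3.57), the lipid carrier Apoe (3.52) and the thrombin receptor F2r (3.39), each a log2 difference. All 12 were higher in 8 of 8 mice, and without mouse 8 their differences ran from 3.38 to 6.44.

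In the other direction Pi16, a peptidase inhibitor of perivascular fibroblasts, was nearly absent from Igfbp3 fibroblasts. It had 7.70, 19.04, 2.60 and 31.03 CPM in KO-labelled and 0, 8.94, 8.64 and 9.18 CPM in WT-labelled mice, against 929.9, 1162, 949.6 and 1316 CPM in KO-labelled and 1599.8, 1249.5, 1213 and 161 CPM in WT-labelled mice in CD90-pos fibroblasts. Apart from the 161 CPM of mouse 8, every CD90-pos value was at least 929.9 CPM. The log2 difference was -5.61 ± 1.21. The transcription factor Ebf1 followed at 20.3 against 1273 CPM, log2 difference -4.92 ± 1.60. Then came the matrix protein Cilp (-4.83), the Hedgehog co-receptor Gas1 (-4.15), the procollagen-processing enhancer Pcolce2 (-3.90), the neuropeptide Y receptor Npy1r (-3.57), the sialic acid hydroxylase Cmah (-3.54), Flrt3 (-3.51), Lrrn4cl (-3.50), the chemokine scavenger Ackr4 (-3.44), the hyaluronan synthase Has1 (-3.42) and the alarmin Il33 (-3.17). Pcolce2 and Has1 were lower in 7 mice and the other 10 genes showed no mouse in which they were higher. In mouse 8 the differences of Ackr4, Lrrn4cl, Cmah, Npy1r and Gas1 were 0 on this scale. Thy1 and Pdgfra, shared by both names, differed little, at 0.011 ± 0.49 and 0.045 ± 0.50, as did Col3a1 at -0.099 ± 0.58.

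**Figure D2:**
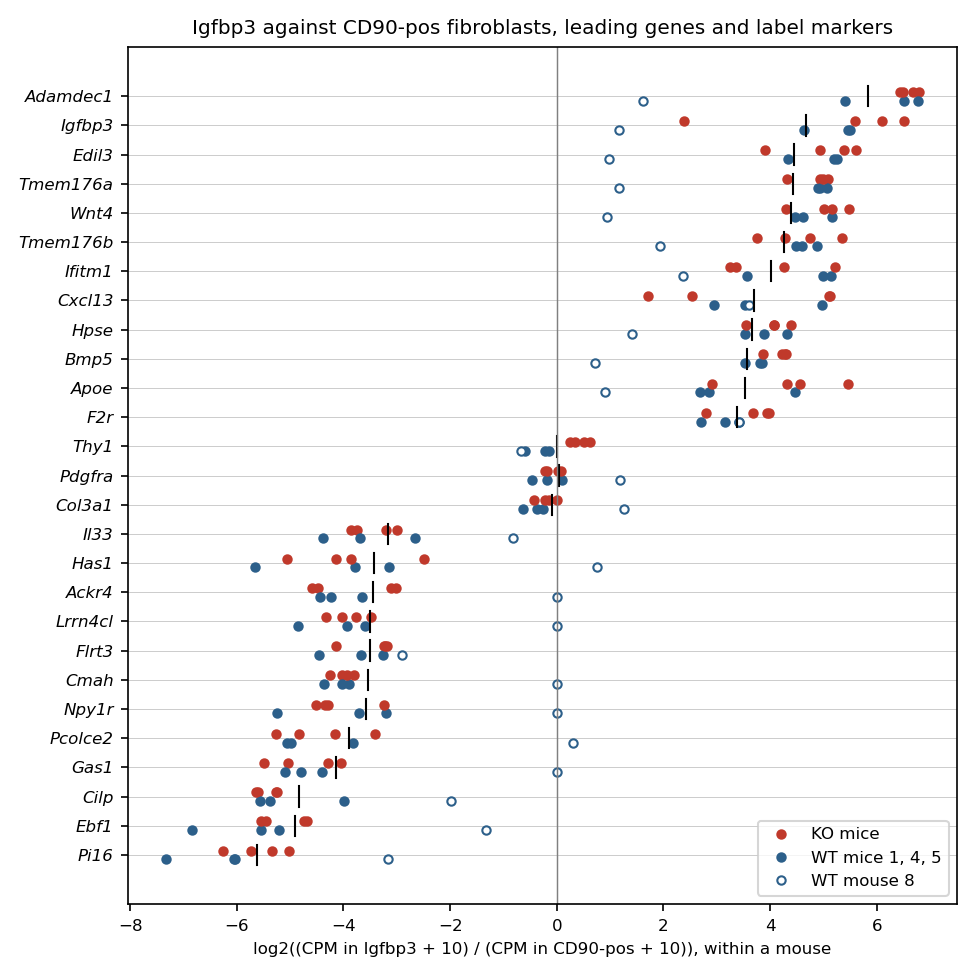
Difference of Igfbp3 over CD90-pos fibroblasts within each mouse, as log2((CPM + 10)/(CPM + 10)), for the 12 leading genes in each direction and the label markers Thy1, Pdgfra and Col3a1; red points are KO-labelled mice, blue points WT-labelled mice, the open point mouse 8, black bars the mean of 8 mice. Mouse 8 lies nearest to 0 for most genes, and the other 7 mice also spread for some genes, such as Igfbp3.

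The IGF system differed in several of its parts. Of the list of 20 IGF genes, 5 of 16 tested members were counted as higher and 3 as lower, with a list median of 0.13. The 3 lower members were the growth factor gene Igf1, Igfbp6 and Stc2, and the same 3 were lower without mouse 8. Besides Igfbp3, the binding proteins Igfbp4 (2790.2 against 1106 CPM, log2 difference 1.22 ± 0.29) and Igfbp7 (4022 against 1286 CPM, log2 difference 1.63 ± 0.16) were higher in 8 of 8 mice, while Igfbp6, which favours IGF2, was lower in 7 of 8 (366 against 1405 CPM, log2 difference -1.52 ± 1.16). Igfbp5 stood at 784 against 812 CPM, log2 difference 0.20 ± 0.85, and Igfbp2 and Igf2 had no UMI in Igfbp3 fibroblasts. Pappa, the protease that cleaves IGFBP4, was higher in 8 of 8 mice (38.95 against 1.85 CPM, log2 difference 2.02 ± 0.52). Stc2, an inhibitor of that protease, was lower in 7 of 8 (11.9 against 69.7 CPM, log2 difference -1.68 ± 1.19). The binding proteins and the protease system differed in both directions between the subtypes.

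Genes of secreted signals differed in both directions, and Wnt4 and Bmp5 were among the 12 genes of largest positive difference. For Wnt ligands, R-spondins and inhibitors, 6 of 13 tested members were counted as higher and 3 as lower, with a list median of 0.60. Wnt4 reached 649.8, 231, 435 and 557 CPM in Igfbp3 fibroblasts of KO-labelled mice 2, 3, 6 and 7 and 276, 425, 422 and 71.1 CPM in those of WT-labelled mice 1, 4, 5 and 8. CD90-pos fibroblasts had 4.78, 2.18, 2.47 and 7.51 CPM in KO-labelled and 2.97, 2.22, 7.56 and 32.3 CPM in WT-labelled mice, so mouse 8 was the lowest of the Igfbp3 sums and the highest of the CD90-pos sums. The secreted Wnt antagonists split, with Sfrp2 higher (186 against 11.6 CPM, log2 difference 2.97 ± 2.08), Sfrp4 lower (1.16 against 81.00 CPM, log2 difference -2.95 ± 0.56) and Sfrp1 higher in 8 of 8 mice but under the threshold (908 against 532 CPM, log2 difference 0.60 ± 0.61). Among BMP and TGF-beta genes, 5 of 21 tested members were counted as higher and 3 as lower, with a list median of 0.36. Bmp5 had 216 against 4.34 CPM, log2 difference 3.57 ± 1.19 and Bmp4 1193 against 235 CPM, log2 difference 2.08 ± 0.72. The BMP antagonist Grem1 was also higher, in 7 of 8 mice (237 against 28.9 CPM, log2 difference 2.19 ± 1.38), as was Id3, a target gene of BMP signalling (1359 against 533 CPM, log2 difference 1.35 ± 0.33). Ligands and an antagonist of BMP signalling were both higher in these sums per mouse. Of 22 growth factor ligands tested, 8 were higher and 6 lower, among them the EGF receptor ligand Ereg (146 against 4.87 CPM, log2 difference 3.33 ± 0.81), the KIT ligand Kitl (130.3 against 8.13 CPM, log2 difference 2.70 ± 0.60) and the semaphorin Sema3d (7.43 against 124 CPM, log2 difference -2.56 ± 1.10). The Hedgehog receptor and target Ptch1 was higher (232 against 92.5 CPM, log2 difference 1.25 ± 0.25), with the transcription factor Foxf2 (56.1 against 8.71 CPM, log2 difference 1.86 ± 0.71).

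Genes that mark other fibroblast positions fell into separate directions. In the list of Adamdec1 lamina propria fibroblast genes, 5 of 10 tested members were counted as higher and 1 as lower, with a list median of 1.12. In the Pdgfra-high subepithelial list, 8 of 16 tested members were counted as higher and 1 as lower, with a list median of 1.24. The 1 lower member was Plat, and Pdgfra itself differed little, as given above. Of the higher members of that list, Nrg1 had 290 UMIs in 88 cells of the authors' cluster 28, described below, and 90 in 1566 cells of cluster 12, and the angiotensinogen gene Agt 293 and 275. A further count took only cells of cluster 12 and, for CD90-pos, cluster 2, over the 7 mice other than mouse 8. There 8 of 15 members were higher and 2 lower, F3 and Plat, with a median of 1.06. Nrg1 and Agt were still counted as higher. In the Cd81 and Grem1 list, 1 of 15 tested members were counted as higher and 9 as lower, with a list median of -1.29, and that median was -1.48 without mouse 8. Its 1 higher member was Grem1. Cd81 had a UMI in 23.5% of Igfbp3 fibroblasts and 81.6% of CD90-pos fibroblasts, whereas Clec3b, a member of the same list, had 1618 against 1548 CPM, log2 difference 0.091 ± 0.087. Transcription factors split as well, with 8 of 24 higher and 4 lower. Tcf21, a mesenchymal factor, was higher (546 against 52.7 CPM, log2 difference 2.78 ± 0.87), and so was Zeb2 (723 against 320.4 CPM, log2 difference 1.04 ± 0.32), while Ebf1 and Osr2 were lower (Osr2, 1.47 against 70.03 CPM, log2 difference -2.43 ± 1.01).

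Matrix genes differed in both directions. Of 21 collagen genes 6 were higher and 3 lower, while the summed level of the list in plain CPM was 24823 in Igfbp3 fibroblasts over 8 mice and 31325 in CD90-pos fibroblasts over the 7 mice other than mouse 8. The basement membrane-associated collagen Col15a1 (875 against 80.5 CPM, log2 difference 3.00 ± 1.17) and Col12a1 (427 against 40.95 CPM, log2 difference 2.73 ± 0.97) were higher, and Col6a3 was lower (299 against 1567 CPM, log2 difference -2.04 ± 1.33). The abundant Col1a2 had 4280.0 against 6098 CPM, log2 difference -0.27 ± 0.64. Among glycoproteins Tnc (290.3 against 14.01 CPM, log2 difference 2.90 ± 1.51) and Postn (2564 against 1112 CPM, log2 difference 1.16 ± 0.29) were higher, Thbs2 (31.9 against 255 CPM, log2 difference -2.38 ± 1.26) and the basement membrane linker Nid1 (239 against 999 CPM, log2 difference -1.70 ± 1.05) lower. Of the enzymes acting on matrix, the aggrecanase Adamts5 was lower in 7 of 8 mice (81.4 against 604 CPM, log2 difference -2.11 ± 1.93), and the protease inhibitor Serpine2 was higher in 7 of 8 (232 against 43.6 CPM, log2 difference 1.96 ± 1.10). Of 9 contractile and smooth muscle genes tested, 3 were higher and 0 lower, with Acta2 at 65.2 against 5.03 CPM, log2 difference 2.16 ± 1.14, Tpm1 at 427 against 173 CPM, log2 difference 1.24 ± 0.12, and Tagln at a log2 difference of 1.09.

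Immune signals also differed between the subtypes. Of 20 chemokine and cytokine genes tested, 6 were higher and 2 lower. Cxcl13, which attracts B cells, had 470.0, 491, 128 and 28.5 CPM in Igfbp3 fibroblasts of KO-labelled mice 2, 3, 6 and 7 and 78.9, 575, 268 and 112 CPM in those of WT-labelled mice 1, 4, 5 and 8, against at most 14.03 CPM in CD90-pos fibroblasts. The level varied widely among mice of 1 genotype, with mouse 7 the lowest. The B cell survival factor Tnfsf13b (314 against 20.2 CPM, log2 difference 3.16 ± 0.95) and Cxcl12 (1585 against 202 CPM, log2 difference 2.72 ± 0.87) were higher in 8 of 8 mice. Il33 was lower in 8 of 8 mice (12.9 against 206 CPM, log2 difference -3.17 ± 1.09). Complement genes went both ways, with C4b higher (485 against 50.6 CPM, log2 difference 2.79 ± 0.97) and C3 (362 against 2029.6 CPM, log2 difference -2.16 ± 1.63) and the complement regulator Cd55 (480.4 against 1443 CPM, log2 difference -1.35 ± 0.72) lower. In prostaglandin synthesis, Ptgs2 (252 against 49.98 CPM, log2 difference 1.67 ± 1.44) and Ptges (150.2 against 50.7 CPM, log2 difference 1.42 ± 0.37) were higher and the prostacyclin synthase Ptgis lower (33.3 against 278 CPM, log2 difference -2.44 ± 1.19). Of 11 retinoid and lipid genes tested, 5 were higher and 1 lower. Among them Rbp4 (97.2 against 15.2 CPM, log2 difference 1.82 ± 0.74), Aldh1a2 (56.7 against 4.48 CPM, log2 difference 1.77 ± 1.23) and Lpl (197 against 67.9 CPM, log2 difference 1.23 ± 0.66) were higher. The 16 immediate early and dissociation stress genes included none past the threshold, with a median of 0.14.

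**Figure D3:**
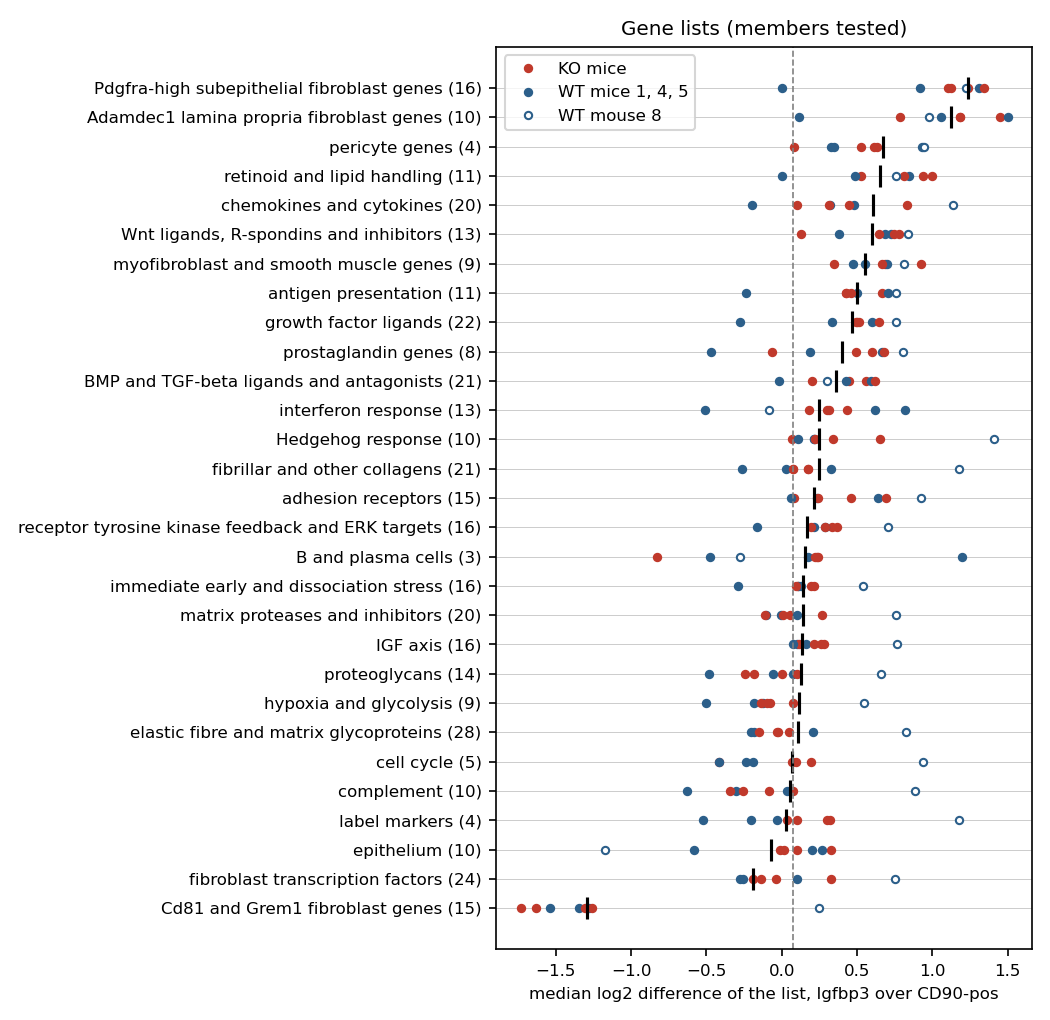
Median log2 difference of Igfbp3 over CD90-pos fibroblasts for each gene list with at least 3 tested members (number in brackets); points are single mice (red KO-labelled, blue WT-labelled, open mouse 8), black bars the list median of the means over 8 mice, the dashed line the median of all 10161 genes. The Cd81 and Grem1 list lies lowest at -1.29, and the Pdgfra-high and Adamdec1 lists lie highest at 1.24 and 1.12.

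The Igfbp3 fibroblasts were not uniform. Of the 1667 cells, 1566 (93.9%) lay in the authors' cluster 12, 88 (5.28%) in cluster 28 and 13 in cluster 2. Cluster 28 gave 1, 3, 10 and 29 cells in KO-labelled mice 2, 3, 6 and 7 and 0, 4, 39 and 2 in WT-labelled mice 1, 4, 5 and 8. The following values describe these cells and are not tested, since the clusters were made from the same transcripts. None of the 88 cells had a Thy1 UMI, which allows a share of cells with a UMI of up to 3.41%, against 28.6% of the cells in cluster 12, at median depths of 4652.5 and 4278.5 UMIs. The transcript behind the word CD90-positive was not detected in them, which limits cells with a UMI at this depth and not cells that carry the protein. The lamina propria gene Edil3, Grem1 and Hhip also had no UMI in them, against 60.2, 31.6 and 10.1% of cells in cluster 12, and Cd34 was found in 5.68% against 87.3%. Igfbp3 itself was detected in 48.9% against 73.8% and Adamdec1 in 95.5% against 77.1%.

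Subepithelial signalling genes were high in the 88 cells. Pooled over cells, the EGF-family ligand Nrg1 stood at 710.3 against 13.5 CPM in cluster 28 and cluster 12, and Wnt5a at 828 against 40.2 CPM. In each of mice 6, 7 and 5, which hold 10, 29 and 39 of the cells, the log2 difference was 5.70, 4.44 and 4.55 for Nrg1 and 5.33, 3.97 and 3.44 for Wnt5a. The same 3 mice held higher values in cluster 28 for the urokinase gene Plau, the laminin Lama5, the endothelin receptor Ednrb, the chemokine Cxcl14, Fgf9 and the peptide hormone receptor Glp2r. The IL-33 receptor Il1rl1 had 61 UMIs in the 88 cells and none in the 1566. Bmp7 was detected in 76.1% against 14.8%, the tissue factor gene F3 in 71.6% against 10.5%, Foxl1 in 30.7% against 3.45% and the smooth muscle gene Acta2 in 46.6% against 10.3%. Elastic fibre genes were nearly absent, with 1 UMI of Eln against 9003 and none of Mfap4 or Mfap5 against 3873 and 3024. In most of these detection shares the 88 cells stood nearer to the 47 fibroblasts that the authors call "CD90-neg, Sox6-Bmp" (Thy1 0%, Bmp7 65.96%, Wnt5a 80.9%, F3 82.98%) than to cluster 12, with Sox6 between them at 27.3% in the 88 cells, 70.2% in the Sox6-Bmp cells and 2.30% in cluster 12. Pdgfra was detected in 97.7% of the 88 cells, 100% of the Sox6-Bmp cells and 61.4% of cluster 12. Only 1 mouse held at least 10 of the 47 Sox6-Bmp cells.

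**Figure D4:**
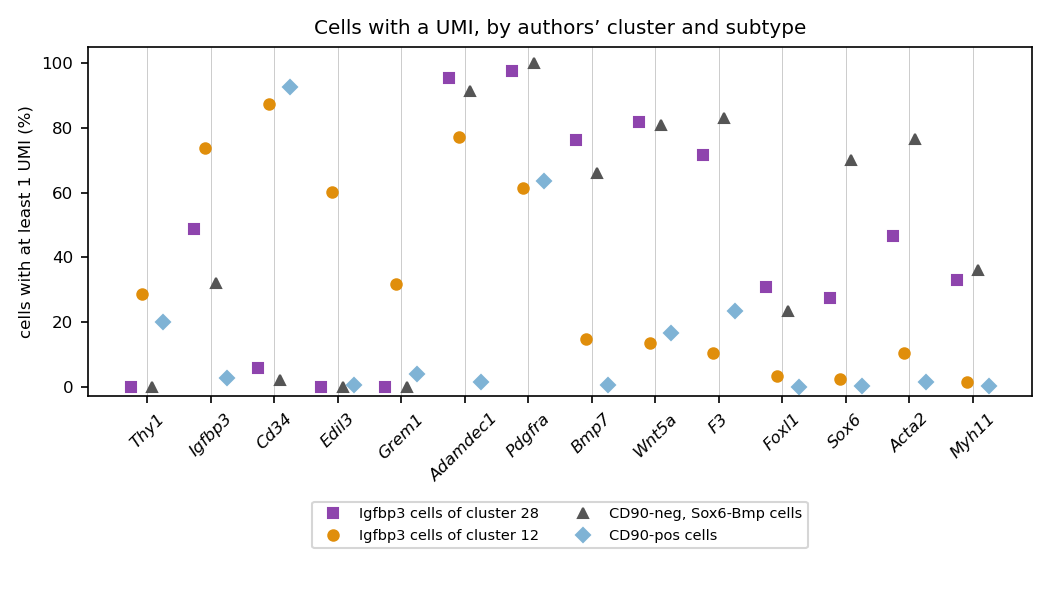
Percent of cells with at least 1 UMI of each gene in Igfbp3 fibroblasts of the authors' cluster 28 (88 cells, squares) and cluster 12 (1566 cells, circles), in CD90-neg, Sox6-Bmp fibroblasts (47 cells, triangles) and in CD90-pos fibroblasts (4424 cells, diamonds). Thy1, Cd34, Edil3 and Grem1 set cluster 12 apart from cluster 28, and Bmp7, Wnt5a and F3 do so in the other direction.

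The design compares KO with WT, so genotype was tested within Igfbp3 fibroblasts, with the mouse as replicate (edgeR quasi-likelihood test, 4 against 4 sums, Benjamini-Hochberg adjustment over 6262 genes). No gene passed an adjusted p of 0.05 (0 of 6262, 0%), and the smallest adjusted p was 0.999. At an unadjusted p under 0.05 there were 234 genes by edgeR and 93 by DESeq2, which also called 0. The 234 and 93 genes were each fewer than 0.05 of those tested, the rate that no difference gives. For 125 genes (2.00%) the values of KO-labelled and WT-labelled mice did not overlap, 66 with KO above and 59 with KO below. With 4 against 4 mice a random order of values gives no overlap at a rate of 0.0286, so the 125 genes are not above that rate. The median SE of a log2 fold change was 0.23. Without the filter on low counts edgeR called 53 of 16476 genes, 10 higher and 43 lower. Among the lower were the chemokines Cxcl2, Cxcl9 and Cxcl10 (log2 fold changes -4.71, -4.59 and -1.87), the epithelial genes Mptx1, Spink4, Retnlb, Krt8 and Muc2, and the Y-linked genes Ddx3y and Kdm5d (-1.17 and -2.58). The 53 also held genes that pass the filter, such as Tnc and Apoe, at a smaller SE. Tnc had -1.30 (SE 0.20) without the filter and -1.36 (SE 0.39) with it. Apoe had 1.01 (SE 0.21) without the filter and 0.95 (SE 0.41) with it. Why the SE differed was not tested. Ddx3y stood at 110.4, 75.8, 0 and 0 CPM in KO-labelled mice 2, 3, 6 and 7 and at 0, 87.8, 112.9 and 0 CPM in WT-labelled mice 1, 4, 5 and 8, and Xist, the transcript of the inactive X chromosome, was found only in the mice without it, so 2 mice of each genotype had each pattern. Without mouse 3 it called Spink4, Mptx1 and the pericyte gene Rgs5 as lower, and without mouse 4 Rgs5 alone. CPM values by genotype are scaled over these 8 sums and differ slightly from those of the subtype comparison. Epithelial transcripts were at other levels in the 2 genotypes, with overlap: the 10 epithelial markers summed to 74.9 to 360.4 CPM in KO-labelled and 236 to 639 CPM in WT-labelled mice, and all 6 tested markers had a log2 fold change below 0 (median -1.16), as did all 3 tested B and plasma cell genes (median -0.69). Over all 6262 genes, 3106 lay below 0. The part of epithelial and B cell transcripts in the values below was not tested.

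The genes of smallest unadjusted p are given as values, none of which passed the adjusted test. Fgf2, a fibroblast growth factor, had 57.8, 45.4, 43.2 and 59.5 CPM in KO-labelled mice 2, 3, 6 and 7 and 15.1, 35.8, 30.2 and 21.2 CPM in WT-labelled mice 1, 4, 5 and 8 (log2 fold change 0.82, SE 0.23). All 4 KO-labelled mice lay above all 4 WT-labelled mice. Spry1, a Sprouty family inhibitor of receptor tyrosine kinase signalling, had 158, 143, 180.0 and 222 CPM in KO-labelled and 90.6, 127, 109 and 134 CPM in WT-labelled mice (log2 fold change 0.58, SE 0.18), again without overlap. The orphan nuclear receptors Nr4a1 (366 ± 82.9 CPM in KO-labelled mice and 198 ± 74.8 CPM in WT-labelled mice) and Nr4a2 (62.6 ± 29.4 CPM in KO-labelled mice and 26.4 ± 11.8 CPM in WT-labelled mice; SD, n = 4 each) overlapped between genotypes. Adamtsl4 (log2 fold change 0.62, SE 0.19) and the hyaluronan-binding protein Tnfaip6 (log2 fold change 0.68, SE 0.22) completed the 6 upper genes, both without overlap. In the other direction stood Rps27rt, with 28.9, 17.3, 28.8 and 20.96 CPM in KO-labelled and 45.3, 46.9, 44.1 and 58.9 CPM in WT-labelled mice (log2 fold change -0.98, SE 0.24), whose reads can be shared with near-identical ribosomal protein copies. The respiratory chain gene Ndufa3 (log2 fold change -0.73, SE 0.18) did not overlap either, nor did Pet100 (log2 fold change -1.09, SE 0.30). The matrix protein Tnc had 94.6, 220.5, 96.2 and 257 CPM in KO-labelled and 468, 145, 416 and 719 CPM in WT-labelled mice (log2 fold change -1.36, SE 0.39), with mouse 4 among the KO values. Serpina3n (log2 fold change -0.91, SE 0.26) and the interferon-inducible Ifi203 (log2 fold change -1.19, SE 0.35) overlapped.

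**Figure D5:**
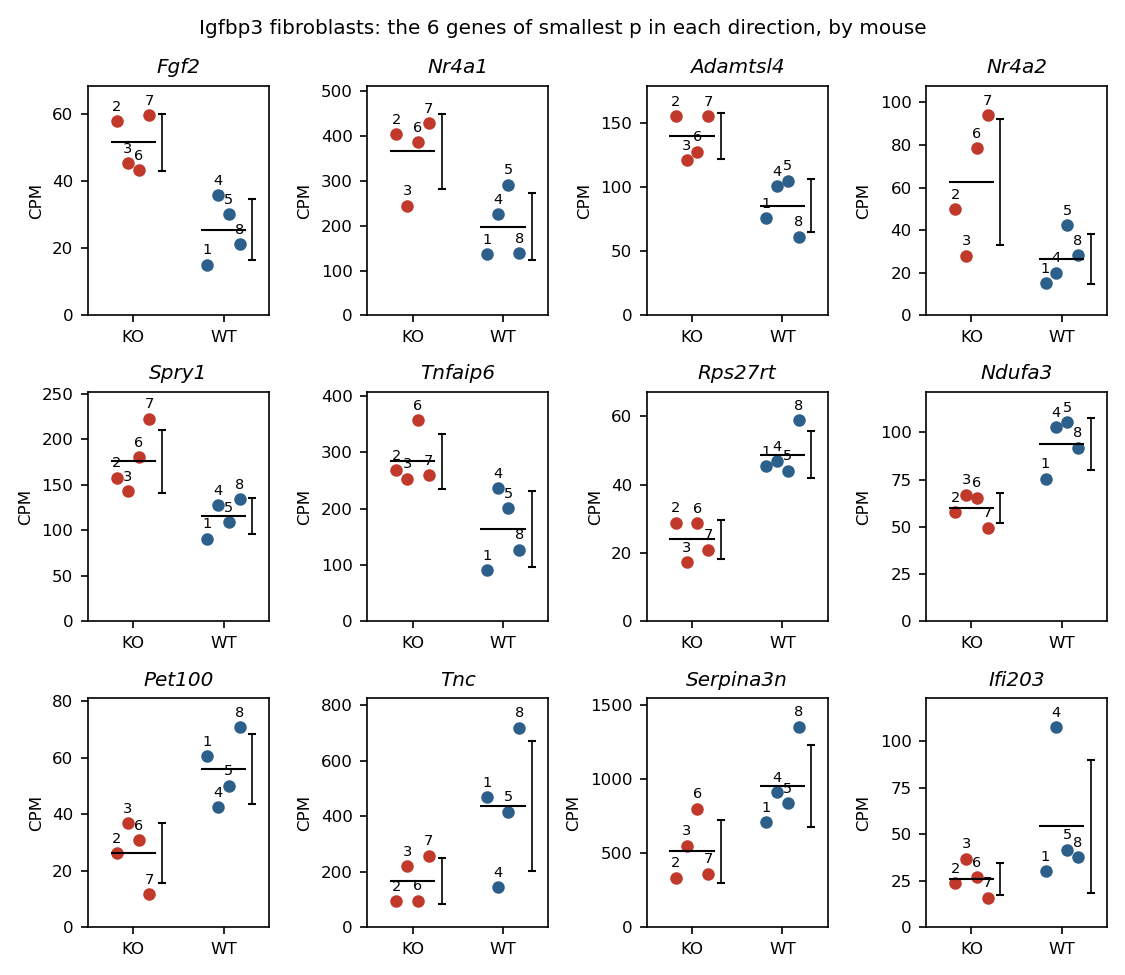
CPM in Igfbp3 fibroblasts for the 6 genes of smallest p with KO above WT (Fgf2 to Tnfaip6) and the 6 with KO below WT (Rps27rt to Ifi203); points are mice with their number, bars the mean, the error bar beside them the SD, 4 mice per group. No gene passed the adjusted test, and Nr4a1, Nr4a2, Tnc, Serpina3n and Ifi203 overlap between groups.

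Spry2 in Igfbp3 fibroblasts, which the Villin promoter does not target, was 75.5 ± 35.8 CPM in KO-labelled mice and 65.1 ± 33.2 CPM in WT-labelled mice (SD, n = 4 each; log2 fold change 0.077, SE 0.33). Of 12 tested receptor tyrosine kinase feedback and ERK target genes, 9 had a log2 fold change above 0 (list median 0.19, against 0.0023 for all genes). Of the 12, 2 did not overlap, Spry1 and Spry4. Over all 6262 genes, 3156 lay above 0, 3106 lay below 0, and 125 (2.00%) did not overlap. No list was tested as a set. Spry4 had 49.9, 58.4, 37.97 and 40.2 CPM in KO-labelled and 30.2, 26.8, 32.9 and 23.6 CPM in WT-labelled mice (log2 fold change 0.58, SE 0.23). Of 16 immediate early and dissociation stress genes, 14 lay above 0 (list median 0.28), their summed level was 31466 to 36365 CPM in KO-labelled and 22639 to 31983 CPM in WT-labelled mice, and none was free of overlap. Both lists hold Fos (6419 ± 846 CPM in KO-labelled mice and 4604 ± 1371 CPM in WT-labelled mice; SD, n = 4 each). All 8 tested interferon response genes lay below 0 (list median -0.11), none without overlap. Of the label markers, Igfbp3 was 975 ± 323 CPM in KO-labelled mice and 1136 ± 349 CPM in WT-labelled mice (log2 fold change -0.24, SE 0.26) and Thy1 112 ± 67.9 CPM in KO-labelled mice and 66.8 ± 19.4 CPM in WT-labelled mice (log2 fold change 0.80, SE 0.34; SD, n = 4 each), where mouse 7 alone stood high. Within mice 1 to 4 the log2 difference of Igfbp3 was 0.46 and within mice 5 to 8 it was -0.87.

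Leading genes of the subtype overlapped between genotypes. Adamdec1 was 1655 ± 201 CPM in KO-labelled mice and 1918 ± 775 CPM in WT-labelled mice, Bmp4 1175 ± 75.6 CPM in KO-labelled mice and 1292 ± 224 CPM in WT-labelled mice and Igfbp7 4183 ± 572 CPM in KO-labelled mice and 4096 ± 222 CPM in WT-labelled mice (SD, n = 4 each). Their log2 fold changes were -0.23 (95% interval -0.71 to 0.24), -0.12 (-0.46 to 0.22) and 0.032 (-0.29 to 0.35). Apoe was 1138 ± 583 CPM in KO-labelled mice and 572 ± 339 CPM in WT-labelled mice (log2 fold change 0.95, SE 0.41) and Grem1 157 ± 57.2 CPM in KO-labelled mice and 340.5 ± 182 CPM in WT-labelled mice (log2 fold change -0.95, SE 0.32), both with overlap. The smooth muscle gene Tagln (16.2 ± 7.20 CPM in KO-labelled mice and 45.9 ± 20.2 CPM in WT-labelled mice; log2 fold change -1.24, SE 0.38) and the integrin Itga1 (39.5 ± 2.50 CPM in KO-labelled mice and 65.8 ± 18.8 CPM in WT-labelled mice; log2 fold change -0.60, SE 0.23) did not overlap, at unadjusted p of 0.0046 and 0.0196.

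Whether genotype acted differently on the 2 subtypes was tested as an interaction with the mouse as a block, over 16 sums (edgeR quasi-likelihood test, Benjamini-Hochberg adjustment). None of 10161 genes passed (0%), the smallest adjusted p was 1, and 324 genes had an unadjusted p under 0.05 by edgeR and 99 by DESeq2, which also called 0. The 324 and 99 genes were each fewer than 0.05 of those tested. The median SE of an interaction was 0.34. The genes of smallest p with a higher KO-over-WT difference in Igfbp3 than in CD90-pos fibroblasts were Lbp, a binder of bacterial lipopolysaccharide, at 1.87 (SE 0.46), the LIM domain protein Fhl2 at 0.99 (SE 0.28) and Gclc of glutathione synthesis at 0.87 (SE 0.26), on the log2 scale. On the other side stood the interferon-induced GTPase Iigp1 at -1.77 (SE 0.45), Ifi203 at -1.17 (SE 0.32) and the integrin Itgb3 at -1.45 (SE 0.40). Iigp1 had 17.98, 16.9, 92.8 and 46.97 CPM in Igfbp3 fibroblasts of KO-labelled mice 2, 3, 6 and 7 and 0, 284, 87.8 and 9.18 CPM in those of WT-labelled mice 1, 4, 5 and 8, against 10.6, 14.3, 13.8 and 16.2 CPM and 14.8, 11.9, 14.03 and 0 CPM in CD90-pos fibroblasts of KO-labelled and WT-labelled mice. The high values in Igfbp3 fibroblasts were those of mice 4, 6 and 5, of both genotypes. Without mouse 7 Iigp1 passed the adjusted test along with Igfbp3, Apoe and Cxcl2, without mouse 6 Iigp1 alone did, and without mouse 5 it did so along with Cxcl2, Cxcl10, Ccl2, Ifi203 and Slc1a3. With a term for mice 1 to 4 against 5 to 8, Cxcl10 and Iigp1 passed, and without the filter on low counts Cxcl2, Cxcl10, Iigp1 and Adamdec1 did. The fits that called Igfbp3 and Adamdec1 include the CD90-pos sum of WT-labelled mouse 8. For both genes that sum stood far above the other CD90-pos sums, and 20 of its 21 cells lay in cluster 12. Its part in these 2 calls was not tested.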

How the data were processed

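Single cells of the distal colonic mucosa of 8 mice were read as 10x 3′ libraries; Cell Ranger 3.0.2 and build mm10 are named in the submitters' processing notes. The deposited matrix holds raw UMI counts of 31053 genes in 53080 cells, whole numbers that the authors left unnormalized. Each cell's size factor in the authors' cell table is a ratio, its total over the geometric mean of totals. Mouse, cluster, class and subtype also come from that table; which tools assigned them is not given in the sources used here. Sorting its rows by mouse and then barcode gave the order of the matrix columns: all 53080 size factors then equalled those computed from the matrix totals (tolerance 1e-06), against 16 in the order as deposited. Cells named doublets were left out of both subtypes. Gene positions came from GENCODE M21.

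UMIs were summed per mouse and subtype (at least 10 cells per sum), so the mouse is the replicate. Genotype and its interaction with subtype were tested with edgeR 4.0.16 in R 4.3.3 (TMM factors, filterByExpr, quasi-likelihood F test) at an adjusted p of 0.05, with DESeq2 1.42.0 beside it; the scripts were tested on simulated data. Shares were compared by two-sided exact permutation. CPM values of single genes are scaled by TMM factors; summed levels of lists, values pooled over cells of a cluster, the sex-linked genes and Spry2 in the epithelium are plain CPM. The pseudocount was 10 CPM. Other steps used Python 3.11.15 with scipy 1.17.1, numpy 2.4.6, matplotlib 3.10.9 and pandas 2.3.3. The members, the 34 gene lists and the tests were chosen with earlier results of these data known, so a pattern seen earlier gains no support here; 3 list genes with more than 1 identifier were left out.

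Genes named were, for the subtypes, the 12 of largest mean difference in each direction with at least 50 CPM in the higher subtype; for genotype the 6 and for the interaction the 3 of smallest p in each direction; in each list the 3 of largest difference at 20 CPM or more and the 2 of highest level; and the label markers, Spry2 and the other Igfbp genes. Genes named for cluster 28, and those called only under an alternative, were chosen after their values were seen. So were Igf1, Plat, Sox6, Foxl1, F3 and the other genes given as shares of cells.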

Additional observations from a re-analysis of the deposited data

Results flagged for a closer look

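Within the 4 mice of a genotype, 1 mouse stood apart from the other 3 in Igfbp3 fibroblasts for 16 of 266 gene and genotype sets. Chance gives about 1 in 20, and the count is near that rate. The cases are therefore listed as values and not as traits of these mice. The test was Dixon's ratio of gap to range, at its 95% critical value for 4 samples. Thy1, the CD90 gene, was high at 213 CPM in KO-labelled mouse 7, against 68.3 to 88.6 CPM in the other 3 mice of its genotype, and low at 37.7 CPM in WT-labelled mouse 8, against 75.5 to 78.2 CPM in the other 3 mice of its genotype. Ccl11, the eosinophil chemokine eotaxin, was 1497 CPM in WT-labelled mouse 8, against 248 to 401 CPM in the other 3 mice of its genotype. The same mouse was high for the matrix genes Col12a1 (752 CPM in WT-labelled mouse 8, against 387 to 438 CPM in the other 3 mice of its genotype) and Postn (3231 CPM in WT-labelled mouse 8, against 2463 to 2583 CPM in the other 3 mice of its genotype).

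KO-labelled mouse 6 stood apart for Igfbp5 (394 CPM in KO-labelled mouse 6, against 758 to 799.8 CPM in the other 3 mice of its genotype), Nid1 (202 CPM in KO-labelled mouse 6, against 262 to 265 CPM in the other 3 mice of its genotype), Foxf2 (42.6 CPM in KO-labelled mouse 6, against 67.01 to 71.3 CPM in the other 3 mice of its genotype), Tnfaip6 (357 CPM in KO-labelled mouse 6, against 253 to 268 CPM in the other 3 mice of its genotype) and H2-D1 (774 CPM in KO-labelled mouse 6, against 536 to 574 CPM in the other 3 mice of its genotype). KO-labelled mouse 7 also stood apart for Angptl2 (404 CPM in KO-labelled mouse 7, against 289 to 300.5 CPM in the other 3 mice of its genotype) and Clec3b (1415 CPM in KO-labelled mouse 7, against 1688 to 1726 CPM in the other 3 mice of its genotype). In WT-labelled mouse 1, which holds 15 of these cells, Clec3b was 2115 CPM in WT-labelled mouse 1, against 1522 to 1615 CPM in the other 3 mice of its genotype, and Adamts5 was 181 CPM in WT-labelled mouse 1, against 49.5 to 64.02 CPM in the other 3 mice of its genotype. Cdkn1a, a cell cycle inhibitor, was 134 CPM in KO-labelled mouse 3, against 302 to 335 CPM in the other 3 mice of its genotype. Ifi203, among the genes of smallest p by genotype, was 107 CPM in WT-labelled mouse 4, against 30.2 to 41.8 CPM in the other 3 mice of its genotype.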

How the results depend on the processing

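The count of 0 genes by genotype stayed 0 under 12 of 15 alternatives planned and under both added after seeing the data (only cells of cluster 12; without mice 1 and 8). It was 53 without the filter on low counts and 0 to 3 with 1 mouse left out (3 without KO-labelled mouse 3, 1 without WT-labelled mouse 4). For the interaction it was 4 without the filter, 2 with a term for mice 1 to 4 against mice 5 to 8 and 0 to 6 with 1 mouse left out (6 without mouse 5, 1 without mouse 6, 4 without mouse 7); with cells of at least 1000 UMIs mouse 8 had too few CD90-pos cells and 7 mice remained. The cause was not tested. Genes higher and lower in Igfbp3 than in CD90-pos fibroblasts numbered 909 and 387 with a pseudocount of 1 CPM, 109 and 84 with 50 CPM, and 255 and 388 with cells thinned to 1000 UMIs, where 6542 genes and, mouse 8 having 3 CD90-pos cells left, 7 mice remained; all 109 and 84 were among the 384 and 203. With 1 mouse left out the counts were 357 to 413 and 194 to 291, 291 being without mouse 8, when 200 of the 203 remained. With only cells of clusters 12 and 2, chosen after seeing the data, they were 357 and 288. Without mouse 8, list members counted as higher and lower were 8 and 3 of 22 for BMP and TGF-beta genes. They were 5 and 4 of 14 for Wnt genes and 7 and 6 of 24 for transcription factors. For growth factor ligands they were 7 and 6 of 22, and for the Cd81 and Grem1 list 1 and 11 of 15. The difference of KO minus WT in the share of Igfbp3 fibroblasts ran from -27.7 to 0.574 percentage points among both CD90-positive subtypes, from -21.5 to 0.671 among all fibroblasts and from -7.15 to 0.338 among non-epithelial cells with 1 mouse left out. It was above 0 without mouse 8 alone. The median UMIs per cell differed by 57.1 to 862 and the mitochondrial percent by -0.161 to 0.512 in the same fits. KO-labelled and WT-labelled mice could not be paired because each mouse has its own number and none is shared between genotypes. The subtypes were compared within mice. The 15 Igfbp3 cells of mouse 1 and the 21 CD90-pos cells of mouse 8 limit what can be seen of low genes.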
